A study of Mus musculus with 10 samples.

Results

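The genes Podxl, Plek2, C2cd4a and Tph1 were examined, 4 of 55359 in the gene FPKM table of lineage-negative (Lin-) bone marrow cells. They were chosen by name as genes nearly absent in the WT libraries and high in most of the libraries labelled cKO, so their difference between the groups is the reason for their choice and is described with no test. RNA was sequenced in 10 libraries, numbered 1 to 5 in each group, and the labels do not say that each came from a separate mouse, so p-values measure the spread between these libraries. The WT group was 5 libraries from Dhx9f/f mice, whose Dhx9 alleles are flanked by loxP sites, and the cKO group was 5 from Dhx9f/f;MX1 mice, which carry the same alleles together with Cre recombinase driven by the interferon-responsive MX1 promoter. The genotype label of the latter reads "Dhx9 knock down". Cre is induced in such mice by poly(I:C), a synthetic double-stranded RNA, and the sources used here do not say whether the WT mice of this experiment received it, so an effect of poly(I:C) and one of the genotype cannot be told apart. Lin- cells were obtained by depleting cells with the surface markers of mature blood lineages and remain a mixture of stem cells and progenitors of several lineages.

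Podocalyxin, the product of Podxl, is a heavily sialylated membrane mucin of the CD34 family, best known from kidney podocytes and vascular endothelium and also found on embryonic erythroid cells. Pleckstrin-2, the product of Plek2, binds phosphoinositides made by PI3-kinase, acts on the actin cytoskeleton and takes part in late red cell development downstream of erythropoietin (EPO) and its JAK2-STAT5 signalling. C2cd4a encodes a small protein named for its C2 domain, which was described in endothelium as a nuclear factor induced by inflammatory cytokines and is studied in pancreatic islets. Tph1 encodes tryptophan hydroxylase 1, the rate-limiting enzyme of serotonin synthesis outside the brain, best known from the gut, the pineal gland and mast cells. In the GRCm39 annotation Podxl (ENSMUSG00000025608) lies on chromosome 6 from 31496418 to 31540924, Plek2 (ENSMUSG00000021118) on chromosome 12 from 78933412 to 78953771, C2cd4a (ENSMUSG00000047990) on chromosome 9 from 67736999 to 67748139 and Tph1 (ENSMUSG00000040046) on chromosome 7 from 46294065 to 46321965, each on the minus strand.

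Some facts of the whole series bear on every value below. FPKM is the number of sequenced fragments scaled to the length of the gene and to the depth of the library. The libraries held about 13930000 to 18820000 fragments, read from the steps between low values, so that 3 fragments of a 1000-base gene were worth 0.159 to 0.215 FPKM. Dhx9, the targeted gene, went against the labels, with 65.43 to 72.42 FPKM in WT and 130.82 to 156.49 in cKO, so every direction below rests on labels that the targeted gene does not bear out. Xist, a transcript of female cells, had 99.19 to 127.76 FPKM in WT 3, 4 and 5 and no more than 0.09 in the other 7 libraries. Markers of several cell types also moved, since the summed FPKM of 24 erythroid markers was 2168 to 3781 in WT and 5577 to 9160 in cKO, that of 14 megakaryocyte markers 336 to 1500 and 119 to 222, that of 14 mast cell and basophil markers 678 to 1353 and 93.6 to 584, and that of 14 stem cell markers 70.7 to 87.7 and 36.9 to 51.4. In such mixed samples, more cells of a type and more RNA per cell cannot be told apart.

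The promoter windows of members that rise together are shown first. The RefSeq table used, of build GRCm38.p6, holds windows from 250 bases before to 50 bases after the gene start for 3 of the 4 genes, Plek2, C2cd4a and Tph1. Each sequence was found once on its chromosome in GRCm39, and the positions given are those of GRCm39, minus strand, with sequences read 5′ to 3′ along the gene. They are Plek2 at chr12:78953663-78953962, 59 bases from the canonical start, C2cd4a at chr9:67739563-67739862 and Tph1 at chr7:46316752-46317051, the last of a pair of Tph1 windows in the table and the one at the canonical transcript. Letters searched on both strands were AGATAA, a form bound by factors of the GATA family, the variant TGATAA bound by the same factors, CCNCNCCC (KLF factors), TTCNNNGAA (STAT factors), TGATGNAA (ATF4 with C/EBP factors), TGANTCA (AP-1) and TATAAA (the TATA box), and capitals mark every match, which may lie on either strand.
Plek2: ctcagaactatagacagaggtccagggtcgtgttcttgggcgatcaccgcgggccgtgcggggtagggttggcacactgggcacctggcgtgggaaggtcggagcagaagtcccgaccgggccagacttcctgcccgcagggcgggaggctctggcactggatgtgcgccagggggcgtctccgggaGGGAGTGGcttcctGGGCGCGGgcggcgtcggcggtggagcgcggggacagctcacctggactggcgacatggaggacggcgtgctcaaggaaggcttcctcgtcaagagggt
C2cd4a: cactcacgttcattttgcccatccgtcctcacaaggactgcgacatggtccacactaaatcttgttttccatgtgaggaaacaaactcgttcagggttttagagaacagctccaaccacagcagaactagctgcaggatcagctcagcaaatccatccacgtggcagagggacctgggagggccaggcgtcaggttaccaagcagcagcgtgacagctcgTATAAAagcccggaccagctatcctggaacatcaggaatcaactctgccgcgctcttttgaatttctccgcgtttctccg
Tph1: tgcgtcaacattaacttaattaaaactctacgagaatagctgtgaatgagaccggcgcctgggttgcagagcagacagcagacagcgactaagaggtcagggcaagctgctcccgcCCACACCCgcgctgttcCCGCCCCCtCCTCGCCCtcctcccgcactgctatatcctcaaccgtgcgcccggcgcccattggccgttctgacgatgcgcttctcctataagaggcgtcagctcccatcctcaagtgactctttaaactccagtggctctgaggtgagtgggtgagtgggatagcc

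The 3 windows had little in common. C2cd4a held TATAAA 30 bases before its start, which 13.6% of the 32851 windows in the table hold somewhere. Plek2 held CCNCNCCC 2 times, both on the opposite strand, and Tph1 held it 3 times, but 49.5% of all windows hold these letters. None of the 3 windows contained AGATAA (11.2% of all windows), TGATAA (9.05%), TTCNNNGAA (8.30%), TGATGNAA (3.97%) or TGANTCA (7.81%), which says only that these letters are not in these 300 bases. Plek2 held 27 CpG dinucleotides, Tph1 19 and C2cd4a 14, against a median of 7 over all windows.

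The level of Podxl in WT 1 to 5 was 0.47, 1.43, 5.41, 0.21 and 0.39 FPKM, and in cKO 1 to 5, named as the labels give them, it was 40.6, 140.18, 96.16, 152.9 and 100.44 FPKM. The groups did not overlap, WT 3 was the highest of its group and cKO 1 the lowest of its own. The means were 1.58 ± 2.19 and 106 ± 44.1 FPKM (SD, n = 5 each), a ratio of 67.0 and a difference of 6.69 on the log2(FPKM + 0.1) scale. Without WT 3 the WT mean was 0.625 ± 0.548 FPKM (SD, n = 4) and the ratio 169.7.

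Plek2 was at 0.11, 0.61, 3.06, 0.24 and 0.25 FPKM in WT 1 to 5 and at 28.66, 60.67, 42.39, 65.54 and 36.11 FPKM in cKO 1 to 5. Again the groups did not overlap, with WT 3 highest in WT and cKO 1 lowest in cKO. The means were 0.854 ± 1.25 and 46.7 ± 15.9 FPKM (SD, n = 5 each), a ratio of 54.7 and a difference of 6.31 on the log2(FPKM + 0.1) scale. Without WT 3 the WT mean was 0.302 ± 0.215 FPKM (SD, n = 4) and the ratio 154.3. The last 1607 bases of Plek2 overlap Eif2s1, a translation initiation factor gene on the other strand, and 42.7% of the distinct 31-base words of the Plek2 transcripts also occur in those of Eif2s1. Whether the counting used strand is not given in the sources used here. Plek2 was at 0.11 FPKM in WT 1 while Eif2s1 was at 33.62, and Eif2s1 reached 80.79 in cKO.

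C2cd4a was listed at 0 in WT 1 and WT 5 and at 0.78, 0.93 and 0.08 FPKM in WT 2, 3 and 4. In cKO 1 to 5 it was at 3.26, 35.95, 35.51, 29.77 and 33.37 FPKM. The groups did not overlap, but cKO 1 stood far below the other 4, which lay within a ratio of 1.21 of each other. The means were 0.358 ± 0.458 and 27.6 ± 13.8 FPKM (SD, n = 5 each), a ratio of 77.0 and a difference of 6.26 on the log2(FPKM + 0.1) scale. Without cKO 1 the cKO mean was 33.6 ± 2.82 FPKM (SD, n = 4), and without WT 3 the WT mean was 0.215 ± 0.379 FPKM (SD, n = 4) and the ratio 128.2. With 2 WT libraries at 0 the log2 difference depended on the pseudocount, at 7.84 with 0.01 and 4.13 with 1. In numbers of fragments, taken from the annotated exon length and so approximate, WT held 0 to 33 and cKO 105 to 1431. Of the 31-base words of C2cd4a, 10.8% also occur in its near relative C2cd4b, which was listed at 0 in all 10 libraries.

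The table lists Tph1 at 0 throughout WT, while its level was 0.23, 22.18, 3.08, 53.38 and 5.92 FPKM in cKO 1 to 5. No fold is given against a group at 0. Every cKO library was above every WT library, yet cKO 1 held only about 20 fragments of Tph1 and cKO 4 about 4995. The cKO mean was 17.0 ± 22.1 FPKM (SD, n = 5), so that the spread exceeded the mean. The highest cKO library was 232 times the lowest for Tph1, 11.0 times for C2cd4a, 3.77 times for Podxl and 2.29 times for Plek2, and with cKO 1 left out these ratios were 17.3, 1.21, 1.59 and 1.82.

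**Figure D1:**
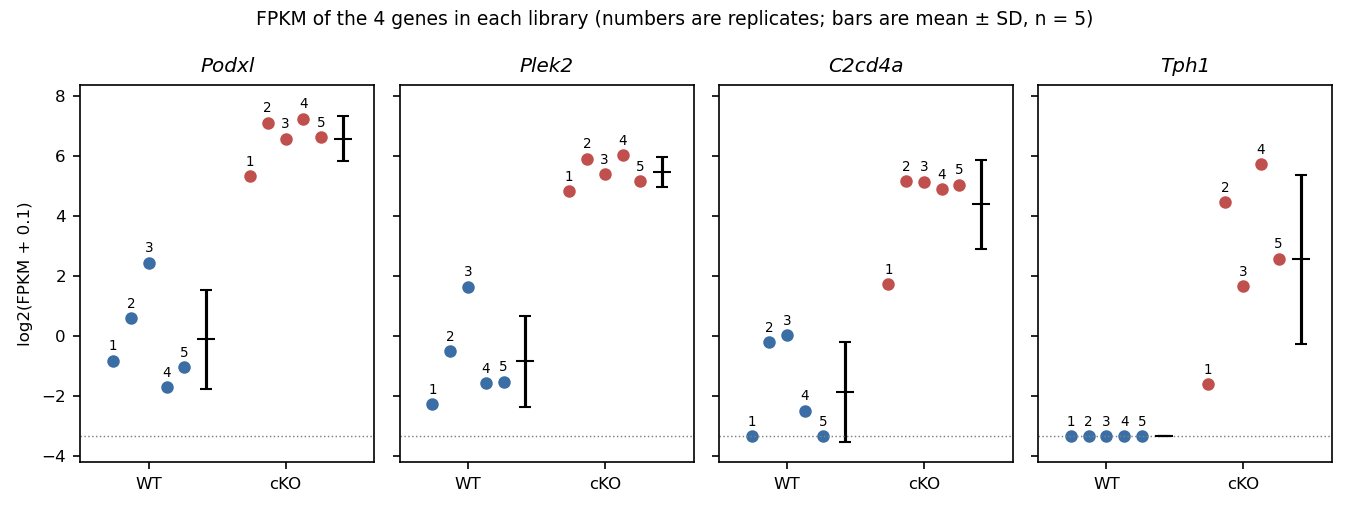
Level of Podxl, Plek2, C2cd4a and Tph1 as log2(FPKM + 0.1) on the vertical axis, in 5 WT (blue) and 5 cKO (red) libraries, each point numbered by replicate, with the mean ± SD (n = 5) at its right. The dotted line marks a value of 0 FPKM, where all 5 WT libraries of Tph1 lie, and cKO 1 is the lowest cKO library in each panel.

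The order of the libraries within a group was shared in part. The choice of the genes named no library, but it used values within each group and asked for high levels in most cKO libraries only. The order is therefore not separate from the choice. From high to low, the cKO libraries stood in the order 4, 2, 5, 3, 1 for both Podxl and Tph1 and 4, 2, 3, 5, 1 for Plek2. C2cd4a differed, with 2, 3, 5, 4, 1. In WT, library 3 was highest and library 2 next for Podxl, Plek2 and C2cd4a. With 5 libraries in a group these orders are a description. The ranges over the 2 WT libraries low in Xist were 0.47 to 1.43 FPKM for Podxl, 0.11 to 0.61 for Plek2 and 0 to 0.78 for C2cd4a. Over the 3 high in Xist they were 0.21 to 5.41, 0.24 to 3.06 and 0 to 0.93 FPKM. The choice of the genes fixed that cKO, where Xist was low throughout, lay above both, and the part of Xist state in their difference was not tested.

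All 4 genes passed the mean of 0.1 FPKM needed for testing. In each of the 4, all 5 cKO libraries lay above all 5 WT libraries, which was so for 10.6% of the 18742 genes tested, and nothing follows from that count, since it chose them. The genes next to them in size of rise are given as a description only, from an order that the same contrast made and in which the place of Tph1, at 0 in WT, rests on the pseudocount. Trib3, a stress-induced pseudokinase gene, fell between Podxl and Plek2, at 0.09 to 0.33 FPKM in WT and 3.6 to 52.48 in cKO. Just outside the 4 came Trgc1, a T-cell receptor gamma constant segment, at 0.78 to 2.31 FPKM in WT and 12.59 to 160.73 in cKO. It was followed by the pseudogene Gm55994 (0 to 1.1 against 2.45 to 18.1 FPKM) and Mmp2, a secreted metalloproteinase gene (0.25 to 0.69 against 4.93 to 210.38 FPKM).

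Erythroid markers were higher in the cKO libraries, and they are given beside the members because Podxl and Plek2 are known from red cell development. Of the 24 markers, 12 were called higher and 0 lower by limma, against 4.60% and 16.8% of all genes tested. Of all calls 21.5% were higher, or 41.3% with quantile normalization. The summed level of the 24 markers went from 2805 ± 617 to 7542 ± 1467 FPKM (SD, n = 5 each), a ratio of 2.69. WT 3 had the highest sum in WT, at 3781 FPKM. The sum, and the scale built on it below, weigh abundant genes most, above all Car1 (means of 694.7 and 2572.9 FPKM). The median log2 fold change of the list was 1.01. The beta-globin gene Hbb-bs, which has a near copy in Hbb-bt that leaves its count uncertain, rose (log2 fold change 2.90, adjusted p = 2.58e-04, limma), as did Alas2, the first enzyme of erythroid heme synthesis (2.67, adjusted p = 1.85e-04, limma). Klf1, an erythroid transcription factor gene, was at 87.5 ± 21.3 and 120.7 ± 14.9 FPKM (SD, n = 5 each), short of a 2-fold change (0.49, adjusted p = 0.0245, limma). Hbb-bs, Alas2 and Klf1 were singled out after their values were seen. Per 1000 FPKM of the summed erythroid markers, Podxl was at 0.0857 to 1.43 FPKM in WT and 5.03 to 18.0 in cKO, and Plek2 at 0.0373 to 0.809 and 3.55 to 7.22. C2cd4a was at 0 to 0.292 and 0.404 to 5.98 on that scale, and Tph1 at 0 and 0.0285 to 5.83. The groups had to stay apart on this scale for Podxl and Plek2. The ratio of their lowest cKO to their highest WT level exceeded that between the highest and lowest marker sums. For C2cd4a it did not, and its groups stayed apart narrowly, at 0.292 and 0.404. Tph1, at 0 in WT, could not overlap. The part of erythroid cells in the levels was not tested. The summed erythroid markers did not set cKO 1 apart, since they were at 8075 FPKM there, within the range of the other 4. Single markers of the list did, in both directions. Rhag was at 274.47 FPKM in cKO 1 and 59.92 to 103.97 in the other 4, and Aqp1 at 484.75 and 148.36 to 234.07. Klf1 was at 95.19 FPKM in cKO 1 and 122.68 to 132.63 in the others. These were also picked after their values were seen.

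**Figure D2:**
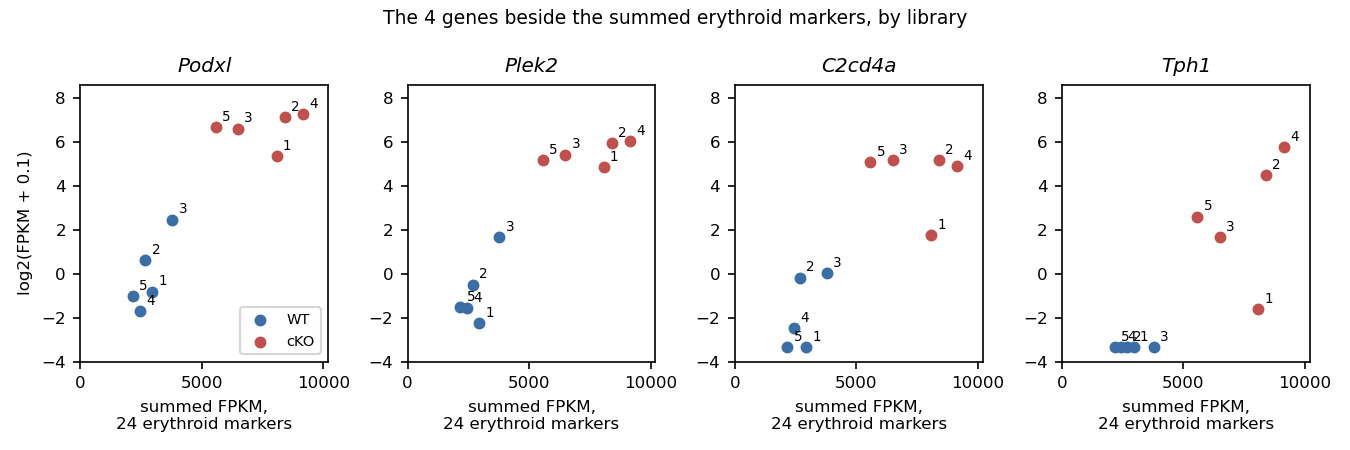
Level of each of the 4 genes as log2(FPKM + 0.1) (vertical axis) against the summed FPKM of 24 erythroid markers in the same library (horizontal axis), WT in blue and cKO in red, numbered by replicate. WT 3, with the highest marker sum in WT, is also the highest WT library for Podxl, Plek2 and C2cd4a, while cKO 1 is low for all 4 genes at a marker sum of 8075 FPKM.

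Markers of other cells that can express these genes were not higher as whole lists. Podxl is an endothelial gene, and of 14 endothelial markers 9 were called lower and 0 higher, with sums of 62.8 to 86.0 FPKM in WT and 42.1 to 46.4 in cKO. The most abundant of this list were Eng (means of 23.7 and 22.5 FPKM) and Pecam1 (18.8 and 2.47). Vwf is also on the megakaryocyte list and Robo4 on the stem cell list, so these counts and sums do not speak for endothelial cells alone. Cdh5, the endothelial cadherin, was at 0.388 ± 0.166 and 0.104 ± 0.109 FPKM (SD, n = 5 each), near 0 in both groups. Egfl7, of the same list, went the other way, at 6.1 ± 0.647 and 11.8 ± 3.24 FPKM (SD, n = 5 each). Its change was short of 2-fold (log2 fold change 0.89, adjusted p = 0.00305, limma). Cdh5 and Egfl7 were singled out after their values were seen. Tph1 is a mast cell gene, and of 12 mast cell and basophil markers tested 6 were called lower and 2 higher. The list joins 2 cell types, and its most abundant genes were Prss34 (means of 622.4 and 117.1 FPKM) and Mcpt8 (321.5 and 83.4). Its counts and its sum therefore do not speak for mast cells alone. The 2 called higher, both mast cell protease genes, were Mcpt4, which is at 0 throughout WT and had 0.91, 1.26, 1.18, 0.24 and 0.79 FPKM in cKO 1 to 5, and Tpsb2, at 0 to 0.04 and 0 to 0.55 FPKM. Of those without a call, Cma1 (means of 0.326 and 1.07 FPKM), Tpsab1 (0 and 0.106) and Il4 (2.61 and 5.81) were also higher in cKO. Gzmb and Mitf had lower means there. The list held no single order within cKO. Mcpt4 was lowest in cKO 4, where Tph1 was highest, but Il4 was highest there, at 9.93 FPKM. Both were picked after their values were seen. Neutrophil markers, summed, were at 2676 FPKM in cKO 1 and 149.7 to 1139 in the other cKO libraries, against 2752 to 3741 in WT. Of these 14 markers, 5 were called lower and 0 higher. The sum hides opposite directions in cKO 1, where Elane was at 183.65 FPKM (676.58 to 998.51 in WT) and S100a9 at 894.75 (48.33 to 93.11). Elane and S100a9 were picked after their values were seen. Of 7 stromal markers tested, 4 were called lower and 1 higher, and of 13 stem cell markers 9 were called lower. The part of any of these cells in the levels of the 4 genes was not tested.

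For the pathways around the 4 genes, lists of relatives and partners were tested in the fit across all genes, with the members themselves left out. Over the 6 lists together, 148 of 181 genes could be tested, 19 were called higher and 35 lower, that is against a background of 4.60% higher and 16.8% lower of all genes tested. Their median log2 fold change was -0.32, beside -0.11 over all genes. The EPO and STAT5 list alone had more genes called higher than lower. The lists were made with earlier results of these data known. This one holds Trib3 and Erfe, which had some of the largest rises of the same contrast. It also shares Epor and Tfrc with the erythroid markers, so its counts do not set the pathway apart.

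Cd34 went the other way from Podxl. This gene, the founding member of the family and a progenitor surface marker, was at 20.1 to 28.57 FPKM in WT and 1.05 to 6.78 in cKO, and all 5 cKO libraries lay below all WT libraries, as for 21.6% of the genes tested (log2 fold change -3.32 ± 0.435 SE, adjusted p = 2.08e-04, limma). Podxl2, the third family member, was at no more than 0.07 FPKM in any library and was not tested. Of 30 genes tested on this list, 8 were called lower and 1 higher. Selplg, which encodes a mucin-like surface glycoprotein of leukocytes, fell by 3.06 on the log2 scale (adjusted p = 2.20e-04, limma) and C1galt1c1, the chaperone of the enzyme that extends mucin-type O-glycans, by 2.05 (adjusted p = 4.90e-05, limma). Arhgdib (-0.84) and Arhgdia (-0.24), the most abundant of the list, did not reach a 2-fold change.

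Plek, which encodes the pleckstrin of platelets and leukocytes and is the nearest relative of Plek2, also went the other way. It was at 47.32, 118.98, 83.89, 88.88 and 96.16 FPKM in WT 1 to 5 and at 27.25, 40.82, 29.68, 45.95 and 30.44 FPKM in cKO 1 to 5, with no overlap (log2 fold change -1.29 ± 0.231 SE, adjusted p = 0.00113, limma). In WT 1, where Plek was lowest of its group, the megakaryocyte markers were also lowest, at 336 FPKM. Of 30 genes of the pleckstrin and PI3-kinase list, 7 were called lower and 2 higher. The phosphoinositide-binding adaptors Plekha1 and Plekha2 fell by 1.78 and 1.77 on the log2 scale (adjusted p = 0.00435 and 4.14e-04, limma) and the formin gene Diaph2 by 1.59 (adjusted p = 7.97e-04, limma). Gab2, a docking protein upstream of PI3-kinase, rose by 1.58 (adjusted p = 8.45e-04, limma) and was at 14.63 FPKM in cKO 1 but 36.93 to 46.43 in the other 4. Actb (-0.25) and Cfl1 (-0.06), for beta-actin and cofilin, were not called.

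The EPO and STAT5 list, to which Plek2 belongs by its known regulation, had 7 of 24 genes called higher and 2 lower, with a median log2 fold change of 0.13. Erfe, the erythroblast hormone that lowers hepcidin, was at 0.34, 1.67, 1.54, 0.21 and 0.14 FPKM in WT 1 to 5 and at 15.61, 31, 20.81, 36.81 and 22.4 FPKM in cKO 1 to 5 (log2 fold change 5.28 ± 0.561 SE, adjusted p = 9.11e-05, limma). Its highest WT libraries were 2 and 3 and its lowest cKO library was 1, as for Plek2. Cish, a feedback inhibitor of STAT5 signalling, was at 0.46 to 0.91 FPKM in WT and 3.86 to 18.48 in cKO (3.71 ± 0.364 SE, adjusted p = 6.85e-05, limma), and Osm, the cytokine oncostatin M, at 2.63 to 4.33 and 6.81 to 21.71 (2.10, adjusted p = 1.86e-04, limma). The lowest cKO value of both was again in library 1. Tfrc, the transferrin receptor, had a log2 fold change of 1.0 (adjusted p = 7.84e-04, limma), just short of 2-fold, with all 5 cKO libraries above WT. Myc was not called (0.16). The receptor and its transducers, looked at after their values were seen, moved less, with log2 fold changes of 0.82 for Epor, -0.84 for Jak2, 0.03 for Stat5a and -0.19 for Stat5b, none of them called. Jak2 was at 46.69 FPKM in cKO 1, above all WT libraries, and at 18.8 to 20.82 in the other 4, below them.

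**Figure D3:**
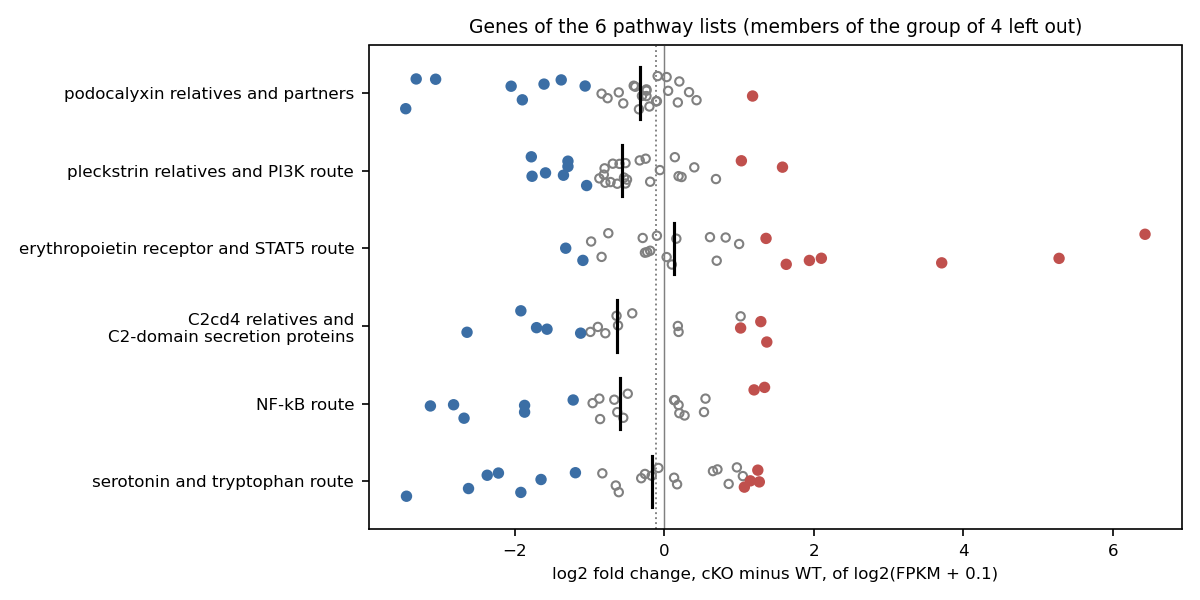
Log2 fold change, cKO minus WT, on the log2(FPKM + 0.1) scale (horizontal axis) of each tested gene of 6 pathway lists. Filled points were called by limma (red higher, blue lower), open points were not, short black bars are list medians and the dotted line is the median of all 18742 genes (-0.11). The 3 points farthest right, in the EPO and STAT5 list, are Trib3, Erfe and Cish.

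Vps13c, a lipid-transfer protein gene, is the nearest neighbour of C2cd4a and starts head to head with its longer transcript, 0.47 kb away, with 471 shared bases on opposite strands. It was at 8.51 to 13.21 FPKM in WT and 20.2 to 35.04 in cKO, and rose (log2 fold change 1.37 ± 0.163 SE, adjusted p = 1.34e-04, limma). Of 17 genes tested on the list of C2cd4 relatives and C2-domain secretion proteins, 5 were called lower and 3 higher. The Rab27-binding synaptotagmin-like genes Sytl4, Sytl3 and Sytl1 fell by 2.64, 1.92 and 1.71 on the log2 scale (adjusted p = 1.29e-04, 0.00209 and 5.89e-04, limma), and Unc13a, a vesicle priming factor gene, by 1.57 from a level of at most 0.47 FPKM. Of the extended synaptotagmins, Esyt2 rose by 1.02, at the limit of the call, and Esyt1 (-0.89) was not called. The list of the NF-kB route, which carries inflammatory signals, had 6 of 22 genes called lower and 2 higher. Rel, one of its transcription factors, fell by 2.82 (adjusted p = 1.84e-04, limma), the chemokine genes Ccl4 and Ccl3 by 3.13 and 2.68 (adjusted p = 0.00213 and 0.00233, limma) and Bcl3, an atypical inhibitor of the route, fell by 1.87 (adjusted p = 0.00131, limma). Chuk (0.55) and Rela (0.14), the most abundant, were not called.

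For Tph1, the enzymes and carriers around serotonin were examined. Tph2, the brain form of the enzyme, was listed at 0 in 9 libraries and at 0.02 FPKM in the last. Of 25 genes tested on the serotonin and tryptophan list, 7 were called lower and 4 higher. Slc6a4, the serotonin transporter, was at 3.27 to 12.72 FPKM in WT and 0.64 to 4.55 in cKO (log2 fold change -2.22, adjusted p = 0.00384, limma), a call lost, like that of Gchfr, with a covariate for Xist (adjusted p = 0.0629 and 0.0927, limma). The serotonin receptor gene Htr1b fell by 2.62 (adjusted p = 2.07e-04, limma), Gchfr, a regulator of the synthesis of the enzyme's cofactor, by 2.37 (adjusted p = 0.00662, limma) and Kmo, of the competing kynurenine route, by 3.45 (adjusted p = 2.84e-04, limma). Slc7a5, a carrier of large neutral amino acids that include tryptophan, rose by 1.27 (adjusted p = 5.87e-04, limma) and was at 59.63 FPKM in cKO 1 against 103.73 to 114.5 in the other 4. Aldh2 (-0.83) was not called. Of other steps, chosen after their values were seen, the vesicular carrier Slc18a2 fell by 1.92 (adjusted p = 3.12e-04, limma) and the serotonin-degrading Maoa rose by 1.15 (adjusted p = 3.35e-04, limma). Ddc, which completes serotonin synthesis after Tph1, was at 0.03 to 0.15 FPKM in all 10 libraries and was not tested.

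The genes beside the members on the chromosome gave too few calls to read against the background. Of the 16 nearest protein-coding genes, 2 on each side of each member, 12 could be tested, and of these Vps13c was called higher, beside a background of 4.60%, and 2 lower, beside 16.8%, Plxna4 beside Podxl (-2.25, adjusted p = 4.15e-04, limma) and Tmem229b beside Plek2 (-1.18, adjusted p = 0.00114, limma). In 4 of the 12, Mkln1, Eif2s1, Vps13c and Sergef, all 5 cKO libraries lay above all 5 WT libraries, beside 10.6% of all genes tested. Not called were Mkln1 (0.37), whose start is 165 kb from that of Podxl, Atp6v1d (-0.01), Eif2s1 (0.82) and Plekhh1 (-0.44) around Plek2, Rora (-0.91) and Ice2 (-0.11) beside C2cd4a, and Sergef (0.89), Saal1 (0.41) and Saa3 (1.34) beside Tph1. Klf14, 1700012A03Rik, C2cd4b and Kcnc1 were listed at or near 0.

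Likeness of profile was measured as the root mean square difference, over the 10 libraries, of log2(FPKM + 0.1) after subtracting each gene's mean, among the 12349 genes averaging 1 FPKM or more. Between the members it was 0.48 for Podxl and Plek2, 0.81 for Podxl and C2cd4a and 0.93 for Plek2 and C2cd4a, but 1.59 to 1.79 between Tph1 and the other 3. The measure spans both groups, so the large step from WT to cKO by which the 4 genes were chosen weighs most in it, and other genes with a large step come out near for that reason. The nearest to Podxl were Gm55994 (0.80), Erfe (0.89) and Fam124a (1.0), and the same genes were nearest to Plek2 (0.76 for Gm55994, 0.80 for Fam124a and 0.82 for Erfe). Gm55994 is a pseudogene of 118 bases, so few fragments lie behind it. C2cd4a was closest to Trib3 (0.87), then to Fam124a (0.90) and Erfe (0.98). Tph1 was closest to Mmp2 (0.85), then to the long noncoding RNA 4930594O21Rik (1.04) and to Trgc1 (1.12). Mmp2 was at 4.93, 86.77, 13.18, 210.38 and 8.31 FPKM in cKO 1 to 5, high in libraries 2 and 4 as Tph1 was.

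**Figure D4:**
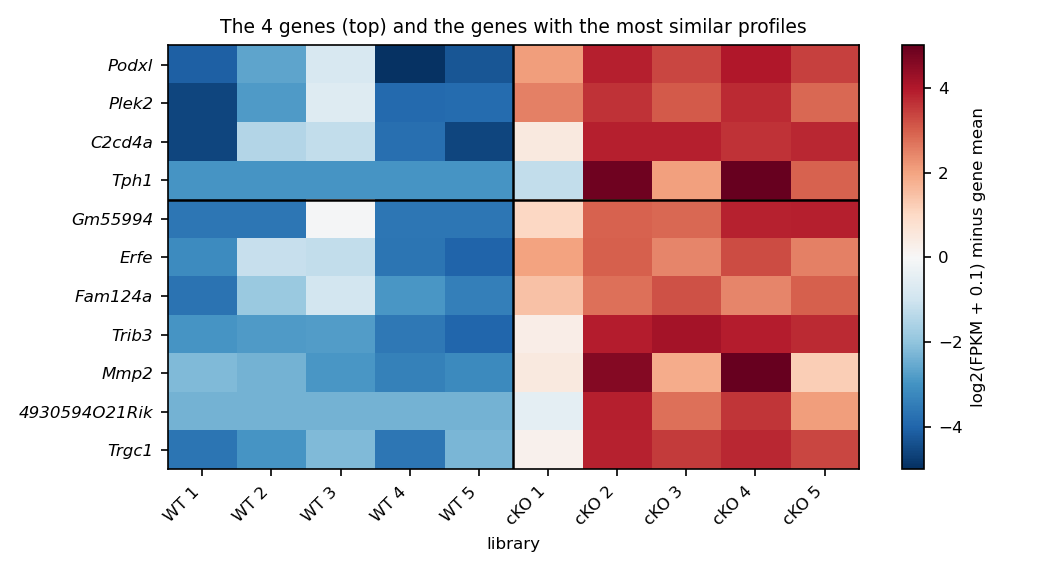
Profiles of the 4 genes (top 4 lines) and of the 7 genes nearest to any of them (below), as log2(FPKM + 0.1) minus the gene's mean (colour, red high and blue low), over WT 1 to 5 and cKO 1 to 5 (horizontal axis). WT 2 and WT 3 are the palest WT libraries for Podxl, Plek2, C2cd4a, Erfe and Fam124a, and for Tph1 and Mmp2 the deepest red is in cKO 2 and cKO 4.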

How the data were processed

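The table held 10 libraries and no others. Per the paper's methods and the labels, the authors trimmed reads (cutadapt 1.9.1 is named), aligned them to GRCm39 with HISAT2 2.0.1 and deposited FPKM per gene, rounded to 2 decimals. HTSeq 0.6.1 is also named, while annotation, gene lengths and strand setting are not given in the sources used here. FPKM are not counts, so DESeq2, which the authors used, was not run. Symbols came from GENCODE M39 by Ensembl identifier (27828 of 28093 genes above 0). Depth was the value at which most FPKM of up to 20 fragments, in genes of one transcript up to 1000 bases, came out whole within 0.2 (96.9% to 97.3%). No libraries of a group agreed within counting noise (chi-square per degree of freedom at least 7.38).

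Genes averaging 0.1 FPKM or more were fitted with limma 3.58.1 (R 4.3.3, eBayes with trend) on log2(FPKM + 0.1), comparing 5 WT with 5 cKO in two-sided tests adjusted by Benjamini-Hochberg. A call needed an adjusted p below 0.05 together with a 2-fold change. That scale understates changes of low genes. The 4 members stayed in the fit, but as they were chosen on this contrast, no p or call of theirs is reported or used. In simulated data 98% of 200 genes shifted by 2 log2 units were found, with 9 false calls among 17953 genes. The simulated libraries were independent, with 1 fixed spread beyond counting noise (dispersion 0.05) for every gene. Only genes with a WT mean of about 1 FPKM or more were shifted. These rates need not hold for the real libraries or for lower genes. The 4 genes, the lists and the named genes were chosen with earlier results of these data known. Named genes of a list were its 4 largest called changes and 2 most abundant genes, and others are marked as chosen after their values were seen. One gene that this rule names is not reported here. Other settings tried were pseudocounts of 0.01 and 1, a filter at 1 FPKM and none, median-ratio scaling, quantile normalization, no trend, a covariate for Xist, a replicate block and each library left out. Sequence and profile steps used Python 3.11.15.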

Additional observations from a re-analysis of the deposited data

Results flagged for a closer look

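A library far from the other 4 of its group, by Dixon's test, was found in 14 of 126 groups of 5 examined. The nominal number by chance, about 6.3, assumes bell-shaped scatter in every group. Groups with almost no fragments, such as Tph2 and Kcnc1 in cKO, do not have it. The flags of Podxl and Plek2 in WT and of C2cd4a in cKO also rest on values used to choose these genes. The flags are therefore a description, and no excess over chance is concluded. Of the 14, 7 were in cKO 1 and 4 in WT 3, and genes that move together are not separate events.

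WT 3 was the distant library for Podxl (5.41 FPKM, the other 4 reaching 0.21 to 1.43) and Plek2 (3.06 against 0.11 to 0.61). It was also distant for Bcl3 (1.54 against 2.33 to 2.56) and for the summed mast cell and basophil markers (678.2 FPKM against 1223.8 to 1353). It had the highest erythroid marker sum of WT, 3781 FPKM, and their part in these values was not tested.

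The library labelled cKO 1 was distant for C2cd4a (3.26 FPKM against 29.77 to 35.95), Trib3 (3.6 against 39.11 to 52.48) and Slc7a5 (59.63 against 103.73 to 114.5), all low, and for Ccl3 (6.89 against 0.52 to 1.56), Ccl4 (1.31 against 0 to 0.2) and Saa3 (6.13 against 0.02 to 0.31), all high. Its neutrophil marker sum of 2676 FPKM was above those of the other cKO libraries, and its depth was the lowest of the 10. Kcnc1 was at 0.02 FPKM in it and listed at 0 in the other 4. The other distant libraries were WT 2 for Osm (4.33 FPKM against 2.63 to 2.96), WT 4 for Saa3 (0.12 against 0.05 to 0.07) and cKO 5 for Tph2 (0.02 against 0).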

How the results depend on the processing

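The log2 differences of Podxl, Plek2 and C2cd4a could not turn, given how the genes were chosen, and none was computed for Tph1. They moved with the pseudocount, to 6.91, 6.69 and 7.84 with 0.01 and to 5.56, 4.81 and 4.13 with 1. With each library left out, Podxl lay between 6.29 and 7.32, Plek2 between 5.96 and 6.93 and C2cd4a between 5.89 and 6.92, and the cKO mean of Tph1 between 7.85 FPKM (without cKO 4) and 21.1 FPKM (without cKO 1). The counts of genes called higher and lower were 862 and 3153, or 356 and 1486 with a pseudocount of 1 and 462 and 1827 among genes averaging 1 FPKM or more, and 1581 were higher with quantile normalization. That normalization took the share of calls that were higher from 21.5% to 41.3% and the median of all genes from -0.11 to 0.10. The genes of the 6 lists called higher fell from 19 to 10 with a pseudocount of 1. With each library left out they were 16 to 21 higher and 32 to 37 lower, and over all genes 762 to 948 and 2892 to 3268.

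Of 30 named genes called, 23 kept the call under all 19 alternatives and none of the 49 tested reversed. The 7 that lost it somewhere were Sytl3, Unc13a and Htr1b (pseudocount of 1), Gchfr and Slc6a4 (covariate for Xist, adjusted p = 0.0927 and 0.0629, limma), Tmem229b (without cKO 1) and Esyt2 (5 alternatives, with log2 fold changes of 0.91 to 0.99). Tfrc, Rora and Sergef were called under some alternatives only. Same-numbered libraries are not said to be paired and did not all deviate together (correlations of -0.010 to 0.117). With the replicate number as a block, 857 genes were called higher and 3107 lower, 16 and 35 of them in the 6 lists. The log2 differences of Podxl (6.69), Plek2 (6.31) and C2cd4a (6.26) could not change, since each number held a WT and a cKO library. Counting error was largest for the lowest values, such as C2cd4a in WT 1, 4 and 5, with about 0 to 3 fragments.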
